A study of Mus musculus with 2 samples.

Results

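Mir99a, Mir99b, Mir100, Mir125a, Mir125b-1 and Mir125b-2 make up the Mir99/100 and Mir125 families of mouse microRNA genes. They were chosen by name, 6 of the 2202 microRNA genes in the count files, and all 6 had a mean of 10 or more counts. The data were small RNA reads below 30 nt from 2 libraries of mouse tissue labelled as layer of hippocampus, the brain region of memory formation. Both libraries came from wild-type females of the B6NCrl substrain, labelled as controls, with no treatment, allele or age given and with fields for sex and age that hold no value. They are biological replicates 1 and 2 of 1 group and share a donor record, and no label says that they came from separate animals, so the spread between them may be technical. The labels name no contrast, and the comparisons are among genes and between the libraries.

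A microRNA is cut as a short strand from an RNA hairpin and guides Argonaute proteins to messenger RNAs that pair with its seed, here bases 2 to 8. The Mir125 family descends from the same ancestor as nematode lin-4, and together with let-7 it controls developmental timing. In mammals both repress Lin28, a protein of undifferentiated cells that blocks the maturation of let-7. The Mir99/100 family is known to repress components of growth signalling such as Mtor and Igf1r. Genes of these families lie beside let-7 genes in paralogous clusters that are transcribed as long precursors, and miR-125b is abundant in brain and acts in neuronal differentiation.

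The mature strands fall into groups by their seeds, printed in capitals in the sequences of the 5′ arms below, which are taken from RefSeq (build GRCm38.p6) and read 5′ to 3′. They are shown because a read can be assigned to a gene only where its bases differ from those of the relatives.
miR-99a-5p: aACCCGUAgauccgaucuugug
miR-100-5p: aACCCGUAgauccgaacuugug
miR-99b-5p: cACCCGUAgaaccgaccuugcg
miR-125a-5p: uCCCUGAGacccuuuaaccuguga
miR-125b-5p: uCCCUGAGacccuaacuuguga
The 3 strands of the Mir99/100 family shared the seed ACCCGUA, which no other mature entry of the table had. Counted from the 5′ end, miR-100-5p and miR-99a-5p differed by 1 base, A16U. From miR-99a-5p to miR-99b-5p there were 4 differences, A1C, U11A, U16C and U21C. The strands miR-125a-5p and miR-125b-5p were identical over the 13 bases from the 5′ end. Mir125b-1 and Mir125b-2 gave the same miR-125b-5p.

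The opposite arms tell the genes of a family apart more clearly. The 3′ arms of the Mir125 genes had 3 different seeds, whereas those of Mir99a and Mir99b shared AAGCUCG.
miR-125b-1-3p: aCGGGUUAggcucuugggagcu
miR-125b-2-3p: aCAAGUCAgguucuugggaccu
miR-125a-3p: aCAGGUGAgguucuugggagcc
miR-99a-3p: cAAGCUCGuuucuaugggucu
miR-99b-3p: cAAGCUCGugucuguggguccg
miR-100-3p: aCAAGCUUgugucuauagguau
Between miR-125b-1-3p and miR-125b-2-3p there were 5 differences, the leading 4 being G3A, G4A, U7C and C11U. No 3′ arm of a member occurred whole in another annotated hairpin. The deposited counts are per gene and do not separate the arms, so which arm was read is not known.

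The members lie in 3 clusters, each with a Mir99/100 gene, a let-7 gene and a Mir125 gene in that order on the plus strand (mm10 coordinates, GENCODE M21). On chromosome 16, Mir99a (77598936 to 77599000) and Mir125b-2 (77646273 to 77646343) are in introns of the long noncoding gene Mir99ahg, and Mirlet7c-1 starts 721 bases after Mir99a. On chromosome 9, Mir100 (41531425 to 41531504) and Mir125b-1 (41581926 to 41582002) flank Mirlet7a-2 within introns of the noncoding genes 3110039I08Rik and Gm49317. There Mir125b-1 also overlaps an exon of Gm28119 on the same strand, and Mir100 an exon of Gm48742 on the opposite strand. These clusters span 47408 and 50578 bases. The cluster on chromosome 17 is compact, with Mir99b (17830188 to 17830257), Mirlet7e and Mir125a (17830812 to 17830879) inside 692 bases. Its host is the protein-coding gene Spaca6, with Mir99b in an intron and Mir125a overlapping an annotated exon.

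**Figure D1:**
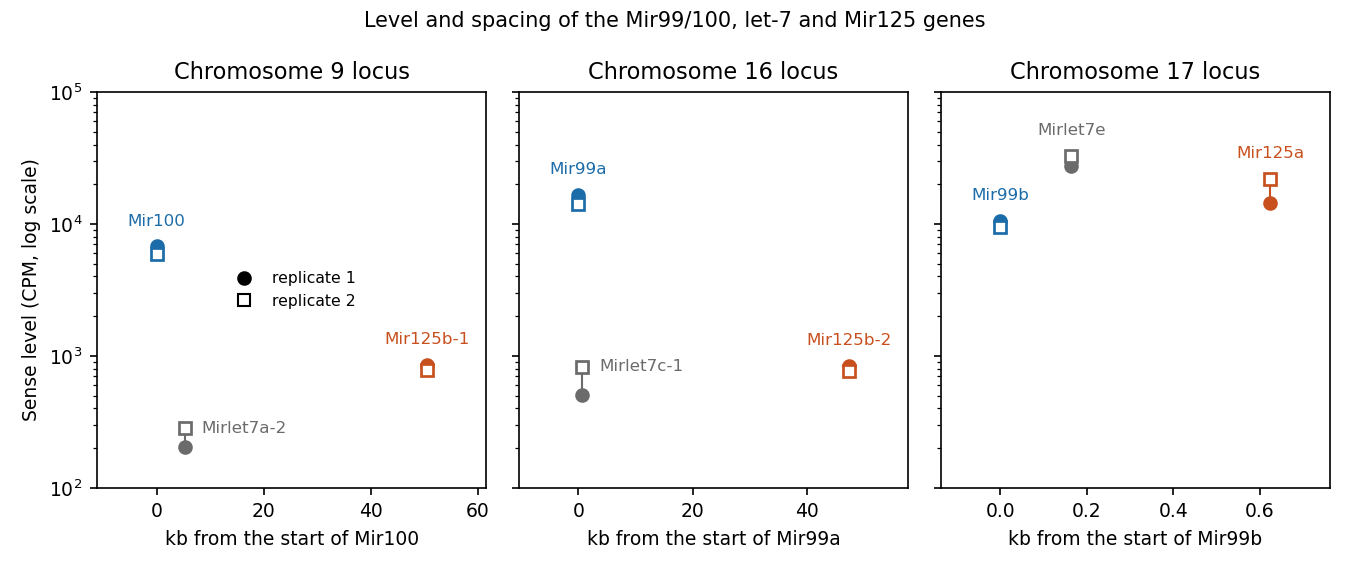
Level of each gene (CPM, log axis) against its distance in kb from the start of the Mir99/100 gene of its cluster. Filled circles are replicate 1 and open squares replicate 2, blue marks Mir99/100 genes, orange Mir125 genes and grey let-7 genes, and the distance axes differ in scale: the chromosome 17 cluster spans 692 bases, and Mirlet7e and Mir125a are the genes of the plot that sit above Mir99b there in both libraries.

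Levels are given as CPM, sense counts scaled to a common total over all microRNA genes. Replicate 1 had 6713867 such counts and replicate 2 had 5901107, and reads that mapped to several places, 43.9% and 45.9% of all reads, were given to no gene. The annotated arms of the members are 21 to 24 bases long, so levels were not divided by length. In replicate 1 the 6 genes together held 4.99% of all sense counts and in replicate 2 5.31%, a mean of 5.15% ± 0.229 (SD, n = 2).

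The Mir99/100 family was led by Mir99a, with 16600 CPM in replicate 1 and 14274 CPM in replicate 2 (15437 ± 1645, SD, n = 2). It held rank 12 of all genes by mean level. Mir99b had 10478 and 9425 CPM (9951 ± 744) and Mir100 had 6748 and 5868 CPM (6308 ± 622), at ranks 20 and 29. The 3 genes kept this order in both libraries, and no library of a lower gene reached a library of a higher gene. As a family they summed to 33826 and 29567 CPM.

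In uniquely assigned reads the Mir125 family was uneven. Mir125a had 14335 CPM in replicate 1 and 21976 CPM in replicate 2 (18155 ± 5403, SD, n = 2) and held rank 10. Mir125b-1 had 853 and 784 CPM (818 ± 48.3) and Mir125b-2 had 844 and 766 CPM (805 ± 55.1), at ranks 95 and 96. Their means differed by less than their SDs. Mir125a supplied 89.4% of the counts of the family in replicate 1 and 93.4% in replicate 2. The family summed to 16031 and 23526 CPM, below the Mir99/100 family in both libraries. The counts leave out reads that match both Mir125b genes, so this order and the share of Mir125a hold only for uniquely assigned reads.

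Across the 6 genes the mean levels fell in the order Mir125a, Mir99a, Mir99b, Mir100, Mir125b-1 and Mir125b-2. The leading pair was not separated: Mir99a exceeded Mir125a in replicate 1, and Mir125a exceeded Mir99a in replicate 2. Mir125b-1 and Mir125b-2 could not be ordered beyond their spread either. The other steps exceeded the SDs of both neighbours, although with 2 libraries no test of the order was made. As reads that match both Mir125b genes are left out, the step from Mir100 to Mir125b-1 holds only for uniquely assigned reads.

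Mir125b-1 and Mir125b-2 are copies with much sequence in common. Their hairpins have 24 bases in common, the longest stretch that either shares with another annotated hairpin, and this stretch holds the whole 22-base miR-125b-5p. It is shown in capitals in the Mir125b-1 hairpin (RefSeq, GRCm38.p6, plus strand), as bases 13 to 36.
Mir125b-1: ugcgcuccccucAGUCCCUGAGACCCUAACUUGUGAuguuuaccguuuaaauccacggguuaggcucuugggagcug
A read that lies within the capitals matches both genes. The counts of Mir125b-1 and Mir125b-2 therefore leave out an unknown number of miR-125b-5p reads, and they cannot be used to rank miR-125b against miR-125a. A stretch of at least 22 bases was shared by 1032 genes, of which 69 reached a mean of 10 counts and 10 had a higher mean level than Mir125b-1. Over all 2202 genes, 466 reached that mean and Mir125b-1 held rank 95.

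For Mir99a and Mir100 the shared stretch was shorter, at 16 bases, and ended before the base by which their 5′ arms differ. It is shown in capitals in both hairpins (RefSeq, GRCm38.p6, plus strand).
Mir99a: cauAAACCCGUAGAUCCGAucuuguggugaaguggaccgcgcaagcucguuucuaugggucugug
Mir100: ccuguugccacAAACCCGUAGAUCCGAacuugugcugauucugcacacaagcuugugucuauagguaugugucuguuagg
A full-length read of either 5′ arm covers the base that differs. How many mismatches the alignment allowed is not given in the sources used here, so the division of 5′ arm reads between Mir99a and Mir100 rests on that single base. Mir125a shared 14 bases at most and Mir99b 11, and neither 5′ arm occurred in another hairpin.

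**Figure D2:**
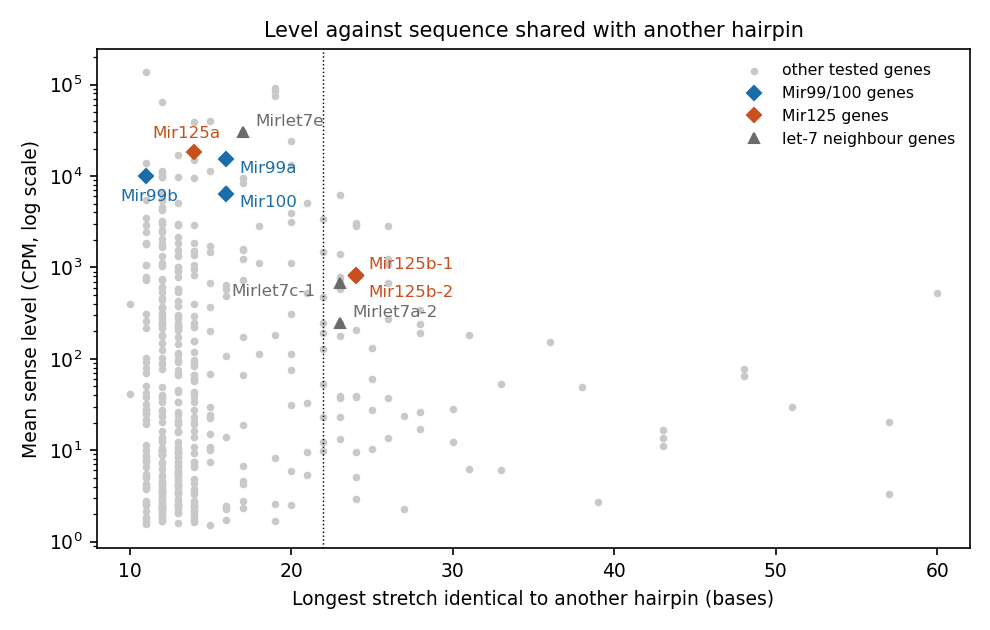
Mean sense level (CPM, log axis) against the longest stretch of bases identical to another annotated hairpin, for the 466 genes that reached a mean of 10 counts. Diamonds are the members (blue Mir99/100, orange Mir125), triangles the let-7 genes of their clusters, and the dotted line stands at 22 bases; Mir125b-1 and Mir125b-2 lie to its right at 24 bases, and the other 4 members lie to its left.

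Between the libraries, Mir125a differed more than the other 5 members under the scaling used here. In CPM those 5 were all lower in replicate 2. The ratio used is replicate 2 to replicate 1 on a log2 scale, with 0.5 counts added and edgeR's TMM scaling (a trimmed mean of log ratios). Its standard error (SE) reflects counting alone. Mir125a was higher in replicate 2, at a ratio of 0.78 (SE 0.0061), a 1.71-fold difference. Its counts were 96240 in replicate 1 and 129681 in replicate 2, the library with the smaller total. The ratios of the other 5 genes lay between -0.06 and 0.04. The median ratio was 0.02 over the members and -0.02 over all 466 tested genes.

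Each gene was set against the remaining sense counts by a 2-sided Fisher exact test, and p-values were adjusted over the 466 genes by Benjamini-Hochberg. It compares these libraries and covers counting error only. All 6 members passed at an adjusted p under 0.05, as did 57.5% of all tested genes, so passing is not particular to them. A gene was taken as higher or lower only if its ratio also had the same sign under TMM, library totals and DESeq2 size factors. By this rule 1 member, Mir125a, was higher in replicate 2, against 18% of all genes. Mir99a and Mir100 were lower, 2 members against 35.6% of all genes.

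For Mir125a the p of the Fisher exact test was too small for the software to hold, and the ratio stayed between 0.62 and 0.81 over the settings tried. Mir99a had a ratio of -0.06 (SE 0.0066; Fisher exact test, adjusted p = 4.58e-244), with 111453 and 84230 counts. Mir100 had a ratio of -0.04 (SE 0.010; Fisher exact test, adjusted p = 1.88e-85), with 45304 and 34627 counts. The test rests on raw totals; under TMM the differences were 1.04-fold and 1.03-fold. Over the settings tried the ratio of Mir99a ran from -0.22 to -0.02 and that of Mir100 from -0.20 to -0.0031, the latter end within its SE of 0.

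For Mir99b, Mir125b-1 and Mir125b-2 the sign depended on the scaling. Mir99b had 70345 and 55619 counts, a ratio of 0.01 under TMM and -0.15 under totals. Mir125b-1 had 5724 and 4628 counts, a ratio of 0.04 and -0.12, and Mir125b-2 had 5666 and 4520 counts, a ratio of 0.02 and -0.14. No direction is given for these genes. Totals place the median of all tested genes at -0.18, and the 5 members other than Mir125a lay between -0.22 and -0.12 on that scale.

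Under TMM, the ratio of Mir125a exceeded that of 362 of the 466 tested genes in size. The median size over all tested genes was 0.36, and over the 50 most abundant it was 0.29. Of those 50, 11 genes had a ratio at least as large in size as that of Mir125a, itself included.

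**Figure D3:**
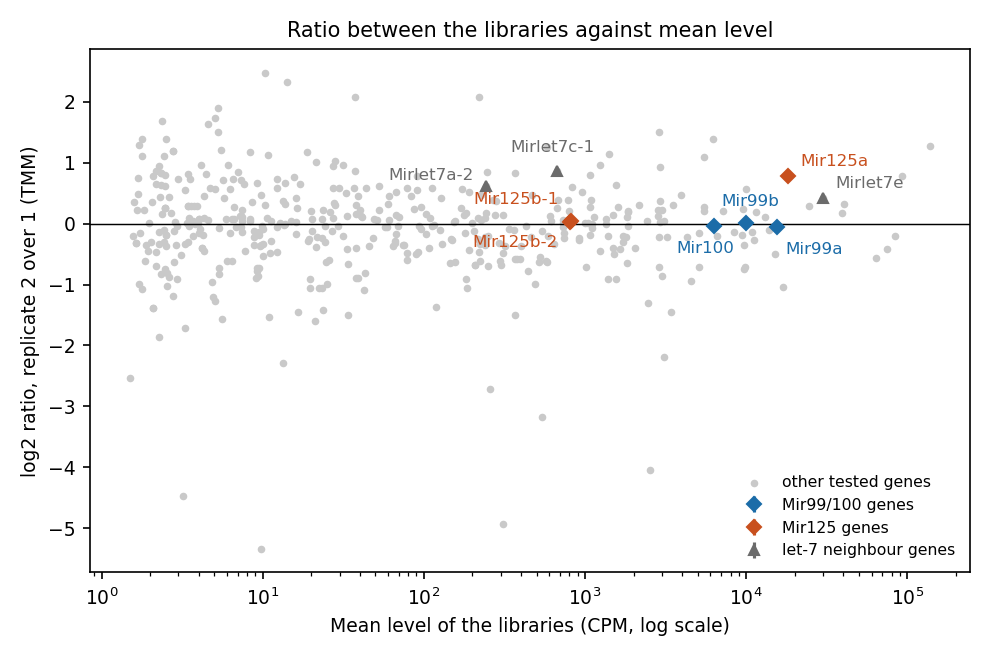
Log2 ratio of replicate 2 over replicate 1 (TMM) against the mean level of the libraries (CPM, log axis) for 466 genes. Diamonds are the members, triangles the let-7 genes of their clusters and grey points the other genes, with bars for the counting SE that are mostly smaller than the symbols; Mir125a stands at 0.78, and the 5 other members lie between -0.06 and 0.04.

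Ratios between genes within a library do not depend on the scaling between libraries. Mir99a exceeded Mir100, the gene that differs from it by 1 base of the 5′ arm, 2.46-fold in replicate 1 (exact 95% interval 2.43 to 2.49) and 2.43-fold in replicate 2 (2.40 to 2.46). Mir125b-1 stood to Mir125b-2 at 1.01 (0.974 to 1.05) and 1.02 (0.983 to 1.07), so the copies had equal counts within counting error. In both pairs the intervals of the libraries overlapped. Mir99a exceeded Mir99b 1.58-fold and 1.51-fold, with intervals that did not overlap.

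Genes of 1 cluster did not always keep their proportions. Mir99b and Mir125a start 624 bases apart, and Mir125a had 1.37 times the counts of Mir99b in replicate 1 (exact 95% interval 1.35 to 1.38) and 2.33 times in replicate 2 (2.31 to 2.35). In the 2 wide clusters the ratio of the Mir99/100 gene to the Mir125 gene was lower in replicate 2, by a smaller step. Mir99a had 19.7 and 18.6 times the counts of Mir125b-2, and Mir100 had 7.91 and 7.48 times those of Mir125b-1. For the latter pairs the intervals of the libraries met only at their ends, 19.2 to 20.2 against 18.1 to 19.2 for Mir99a and 7.70 to 8.14 against 7.26 to 7.72 for Mir100. Such an overlap does not show that a ratio was unchanged, and the change was not tested. As reads that match both Mir125b genes are left out, the ratios to these genes hold only for uniquely assigned reads.

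By uniquely assigned reads, the clusters were filled in different ways. On chromosome 9, Mir100 took 86.4% and 84.6% of the counts of the cluster, and on chromosome 16, Mir99a took 92.5% and 89.96%. On chromosome 17 the let-7 gene was the largest: Mirlet7e took 52.4% and 51.0%, Mir125a 27.5% and 34.3%, and Mir99b 20.1% and 14.7%. The cluster on chromosome 17 held 5.21% and 6.40% of all counts, that on chromosome 16 1.80% and 1.59%, and that on chromosome 9 0.781% and 0.693%. Mirlet7a-2 and Mirlet7c-1 share 23 bases with other hairpins, so the shares on chromosomes 9 and 16 leave out let-7 as well as miR-125b reads.

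**Figure D4:**
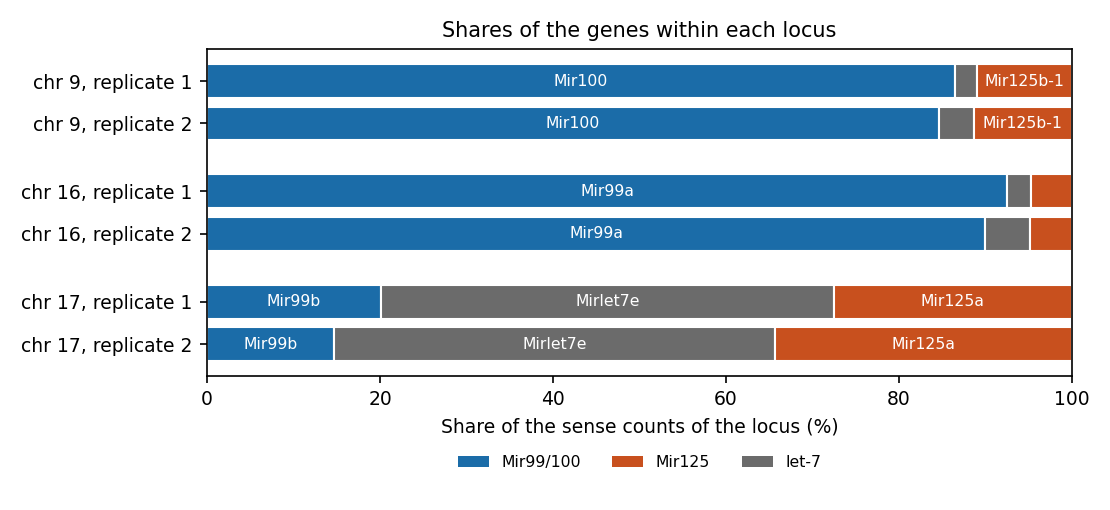
Share of each gene in the sense counts of its cluster (%), with a bar for each library. Blue is the Mir99/100 gene, grey the let-7 gene and orange the Mir125 gene. Mir100 and Mir99a fill at least 84.6% of their bars, which leave out let-7 and miR-125b reads that match several hairpins. On chromosome 17 the share of Mir125a was 27.5% in replicate 1 and 34.3% in replicate 2.

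All 3 let-7 genes of the clusters were higher in replicate 2 by the same rule, against 18% of all tested genes. Mirlet7c-1, next to Mir99a, had 506 and 827 CPM and a ratio of 0.87 (SE 0.03). Mirlet7a-2 had 206 and 282 CPM and a ratio of 0.62 (SE 0.05). Mirlet7e, between Mir99b and Mir125a, had 27311 and 32641 CPM and a ratio of 0.42 (SE 0.0047), which fell to 0.26 under totals. Their Mir99/100 neighbours Mir99a and Mir100 were lower and Mir99b had no direction.
let-7e-5p: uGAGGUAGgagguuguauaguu
let-7c-5p: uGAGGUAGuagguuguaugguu
These strands are shown because they share the let-7 seed, in capitals, and belong to the let-7 genes annotated beside Mir99b and Mir99a. The strand let-7c-5p also occurs whole in the hairpin of Mirlet7c-2, outside these clusters. Over the whole let-7 list, 8 of 12 genes were higher and 3 lower, while Mirlet7f-2 failed the test, against 18% higher and 35.6% lower among all tested genes. The median ratio of the list was 0.40 under TMM and 0.24 under totals.

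Other genes that carry the Mir125 seed were low. Of mature entries outside the family, those of Mir351, Mir6367 and Mir6394 had the seed CCCUGAG.
miR-351-5p: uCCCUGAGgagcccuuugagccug
Mir351, on the X chromosome, had 1514 and 1095 counts, or 226 and 186 CPM, and was lower in replicate 2 at a ratio of -0.12 (SE 0.06). Mir6367 and Mir6394 had 0 counts in both libraries, and their floor of 3 counts allows 0.447 CPM in replicate 1 and 0.508 CPM in replicate 2. Mir10a and Mir10b, wider relatives of the Mir99/100 family that lie among Hox genes, differ from it in the seed.
miR-10a-5p: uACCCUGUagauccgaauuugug
Mir10a had 112 and 30 counts and Mir10b had 18 and 2.

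By a fixed rule that left the 6 members out of the search, the genes most like each member were those at the smallest Euclidean distance in log2(CPM + 1) of the 2 libraries, a likeness over 2 points only. For Mir99a they were Mir132, at a distance of 0.23, and Mir652, at 0.32. For Mir99b they were Mir29a and Mir328, both at 0.18, and for Mir100 they were Mir541 at 0.14 and Mir30d at 0.32. Mir125b-1 and Mir125b-2 had the same nearest genes outside the families, Mir3102 and Mir667, at distances of 0.07 to 0.14. For Mir125a the nearest genes outside the families were farther off, Mir23b at 0.74 and Mir23a at 0.78.

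Other measures differed between the libraries as well. Mir139, at rank 1 by mean level and rank 3 in replicate 1, had a share of 8.72% in replicate 1 but 18.8% in replicate 2. With Mir139 left out of the totals, the ratio of Mir125a was 0.79 and those of the 5 other members lay between -0.05 and 0.05. Mir99b, Mir125b-1 and Mir125b-2 then did not pass (Fisher exact test, adjusted p = 0.071, 0.14 and 0.41). Of 13 neuron markers, 12 had counts in both libraries, and they summed to 28660 and 29771 CPM, with Mir124a-2 at 0 counts. All markers of the other cell types had counts in both libraries. The 3 oligodendrocyte markers summed to 7078 and 3193 CPM, the endothelial marker Mir126a to 6191 and 2897, the 2 mural markers to 2480 and 1504, the 3 erythrocyte markers to 73.1 and 32.7, and the 5 epithelial markers to 331 and 633. The 5 leukocyte and microglia markers summed to 2025 and 2238 CPM and the 5 choroid plexus and ependyma markers to 2056 and 1747. Some sums hid markers that went opposite ways in replicate 2. Of the leukocyte and microglia markers Mir150 was higher (8747 and 10713 counts), but Mir142, Mir146, Mir155 and Mir223 were lower. In the choroid plexus and ependyma list Mir204 was higher, Mir34b, Mir34c (3028 and 361 counts) and Mir449a were lower, and Mir211 did not pass. The neuron markers also differed in direction, with Mir128-1 higher and Mir132 lower. Among the epithelial markers Mir200a, Mir200b (620 and 2064 counts), Mir141 and Mir429 were higher, but Mir200c was lower (510 and 330 counts). Mir145a of the mural list and Mir219a-1 of the oligodendrocyte list did not pass. The part of the cell types in the ratio of Mir125a was not tested, and in bulk tissue fewer cells of a type and less RNA per cell cannot be told apart.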

How the data were processed

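Unnormalized counts of reads on each microRNA gene were deposited for mm10 and GENCODE M21, per the file headers of the notes that come with each library. Adapter trimming followed a document that differs between the libraries, per the labels' protocols; the sources used here name no aligner or counter. Of 3 count columns the sense column was used, and library sizes exclude the 4 rows for reads outside genes. All 2202 identifiers matched GENCODE M21. Here CPM, TMM (edgeR 4.0.16), DESeq2 1.42.0 size factors, and Fisher exact tests (SciPy 1.17.1) over genes that reached a mean of 10 counts were computed. Of these steps, the Fisher exact test with ratios under totals was tried on simulated data that held counting error alone. That trial did not cover TMM ratios or the rule of 1 sign. Intervals are exact (Clopper-Pearson, 95%) and, like the floor of 3 counts, cover counting error only. Shared stretches were sought on both strands of annotated hairpins, not in the rest of the genome. Named genes were the members, the let-7 genes within 60 kb, seed relatives, Mir10a, Mir10b, Mir139 and the 2 genes outside the families nearest by level. The members and lists were chosen with earlier results of these data known. The p-values measure no spread between animals. Alternatives were other scalings, filters, added counts, counts without strand, Mir139 or genes that share 18 or more bases left out, and single libraries.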

Additional observations from a re-analysis of the deposited data

How the results depend on the processing

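The ratio of Mir125a was positive and passed under every alternative tried. The number of members taken as higher or lower was 3 and became 6 under library totals alone (5 lower, 1 higher) and 6 under DESeq2 size factors alone (3 lower, 3 higher), since either drops the rule of 1 sign. Over all 466 genes the same settings gave 184 lower and 84 higher, and 169 lower and 99 higher. Under totals the ratios of Mir99b, Mir125b-1 and Mir125b-2 turned to -0.15, -0.12 and -0.14, and under DESeq2 size factors that of Mir99b turned to -0.0018. By the main rule 166 were lower and 84 higher, and 136 and 118 of 465 under totals without Mir139. Taking scaling factors from the tested genes alone, an alternative chosen after seeing the data, left 2 members lower and 1 higher but moved the ratio of Mir99a from -0.06 to -0.02 and that of Mir100 from -0.04 to -0.0031. Without genes that share 18 or more bases, Mir125b-1 and Mir125b-2 were not tested. The summed level of the 6 members, 51475 CPM, moved to 54978 CPM without strand and 60018 CPM without Mir139, through the smaller totals, and was 49857 to 53093 CPM in single libraries. Without strand Mirlet7e had 0 counts, against 183363 and 192615 sense counts, and the share of Mir125a in its cluster became 63.9%. The counts of Mir125a were the same in both columns, so that share moved only through the absence of Mirlet7e. No paired analysis was possible because there is 1 group, and a ratio cannot be had without either library. Depth limits only genes with few counts, such as Mir10b.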
